A study of Mus musculus with 13 samples.

Results

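Ccl5-positive effector CD8 T cells were taken from scRNA-seq libraries of mouse liver as barcodes with at least 1500 unique molecular identifiers (UMIs), at least 2 UMIs of Cd3d, Cd3e and Cd3g together, at least 2 of Cd8a and Cd8b1 together and at least 2 of Ccl5, and none of Cd4, Trdc or Foxp3. The rule found 4003 cells of 95563 (4.19%), called members here, in 13 libraries. Of these, 3935 lay in the 7 libraries with at least 20 members, all prepared with isolation protocol B. The study fed 3,5-diethoxycarbonyl-1,4-dihydrocollidine (DDC), a chow additive that injures the bile ducts and leads to biliary fibrosis, and sequenced liver cells by droplet 10x Genomics 3′ chemistry along the diet. Mice were male C57BL/6J animals of 6 to 12 weeks. Groups were normal chow (D0, steady state), 0.1% DDC for 3 or 5 days (D3 and D5, onset), DDC for 9, 19 or 25 days (D9, D19 and D25, progression), and prolonged DDC followed by 7 days without it (STOP, recovery), with 1 library for each day and protocol. The labels name no altered allele in any group. Protocol B combined sorted populations, among them CD3e-positive cells, so that cell numbers in a library follow the sort.

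CD8 T cells are lymphocytes that recognise peptides on MHC class I and kill target cells through granules of perforin and granzymes, or through Fas ligand. Effector and memory CD8 T cells secrete the chemokine CCL5, which attracts T cells and monocytes, whereas naive CD8 T cells carry receptors for lymph node homing and make little of it. In injured liver, CD8 T cells gather in portal tracts, and those that meet their antigen for long may carry inhibitory receptors such as PD-1.

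Members numbered 193 in D0 B, 113 in D3 B, 635 in D5 B, 390 in D9 B, 698 in D19 B, 686 in D25 B and 1220 in STOP, and 5 to 18 in each protocol A library, 68 in all. Their summed UMIs lay between 901302 in D0 B and 9304432 in STOP, which sets the precision of each level. Levels below are UMIs of a gene per 1000000 UMIs of these sums (CPM), compared within a gene only. The 78 pairs of libraries shared at most 49 cell barcodes and at most 1 member barcode, 3 member barcodes in all. The labels do not tell whether libraries came from separate mice, so p-values measure the spread between libraries, which may be technical. Mitochondrial UMIs made up 1.41% to 4.64% of the members' UMIs in protocol B, and 25.4% to 46.6% of members held at least 2 UMIs from 20 genes that define other lineages. Doublets were not removed, and each test was repeated without these members.

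Members were selected on their UMIs of Cd3, Cd8 and Ccl5, so these values are a description. Among the protocol B libraries, Ccl5 was highest in STOP and D0 B. A member held a median of 56 Ccl5 UMIs in D0 B, 47 in D3 B, 14 in D5 B, 27 in D9 B, 44 in D19 B, 50 in D25 B and 119 in STOP. The level was 13630.3 CPM in D0 B, 4587 in D3 B, 4146 in D5 B, 4741 in D9 B, 8591 in D19 B, 8169 in D25 B and 18672 in STOP. In protocol A, with 5 to 18 members per library, the order differed. There the level was 12627 CPM in D0 A, 2868 in D9 A, 24728 in D19 A and 15158 in D25 A. Just inside the threshold lay 412 members with 2 or 3 Ccl5 UMIs, and just outside it 551 CD8 T cells with 1. Cells gated on markers of other lineages also reached 2 UMIs. B cells were gated as cells with no Cd3 UMI and at least 2 UMIs of Cd79a and Cd79b together. Other lineages and doublets were not excluded from this gate. Its cells held a median of 252 CPM of Cx3cr1, a gene also of myeloid cells, against 28.2 CPM in members. How many of them are B cells alone was not tested. Of B cells, 6.45% did so in D0 B, 19.5% in D3 B, 36.7% in D5 B, 20.3% in D9 B, 14.3% in D19 B, 14.7% in D25 B and 24.5% in STOP. Cells with endothelial markers reached it in 4.00% to 32.3%. Depth differed between these libraries, as B cells held a median of 2779 UMIs in D0 B and 7371 to 14257 in the others. By level, Ccl5 in B cells was highest in D0 B, at 351 CPM, and at 137 CPM in D5 B. B cells numbered 775 in D0 B and 41 to 105 in the other protocol B libraries. In protocol B, the share of members under 10 Ccl5 UMIs was lowest in STOP, with 5.98%, and highest in D5 B, with 44.1%, the library in which Ccl5 in B cells was also most frequent. How far free RNA brought cells into the gate there was not tested directly, and each count was repeated with members of at least 10 Ccl5 UMIs.

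**Figure D1:**
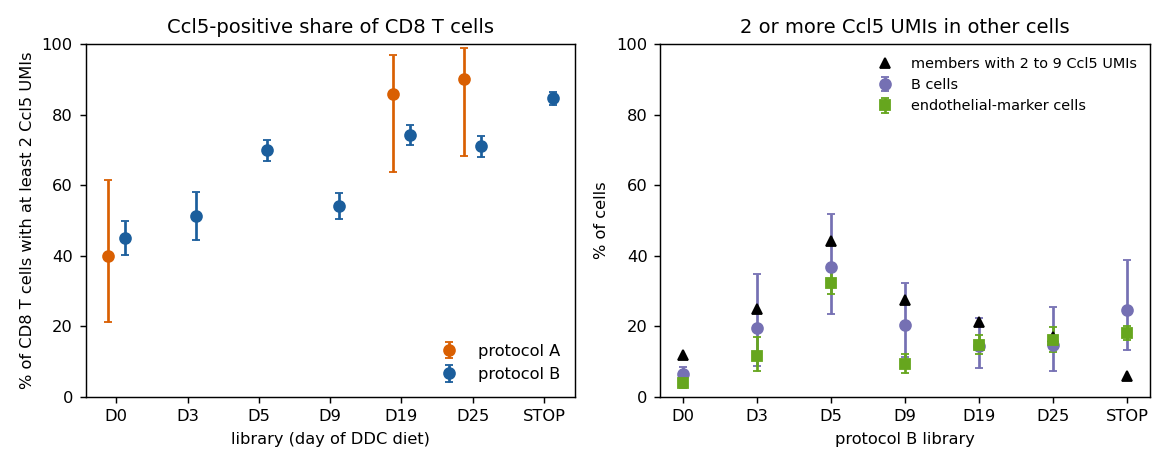
Left, CD8 T cells with at least 2 Ccl5 UMIs by library, as percent of all CD8 T cells, for protocols A and B, with exact 95% binomial intervals that cover counting error only. Right, percent of B cells and of cells with endothelial markers that hold at least 2 Ccl5 UMIs, and percent of members with 2 to 9. In STOP 84.7% of CD8 T cells were members against 45.0% in D0 B, and B cells with 2 or more Ccl5 UMIs were most frequent in D5 B (36.7%).

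The first comparison asks whether members make up more of the CD8 T cells during the diet. In protocol B, members were 45.0% of CD8 T cells in D0 B, 51.4% in D3 B, 69.9% in D5 B, 54.1% in D9 B, 74.3% in D19 B and 71.0% in D25 B. Of the protocol A libraries, 3 held at least 20 CD8 T cells, with 40.0% in D0 A, 85.7% in D19 A and 90.0% in D25 A. All 7 DDC libraries of the test lay above both steady-state libraries. The difference, averaged over the protocols, was 33.5 percentage points (exact two-sided permutation of library labels within protocol, p = 0.0556, the smallest that 18 arrangements allow). In protocol A it was 47.9 points, from libraries of 20 to 25 CD8 T cells. The gate is a fixed count of UMIs, and depth differed. Members held a median of 2872 UMIs in D0 B and 5243 to 11382 in the DDC libraries of protocol B. The 5.84 points between progression and onset did not pass (exact permutation test, p = 0.5, with a smallest possible p of 0.1). It was 13.1 points in thinned cells, 10.7 with at least 4 and 13.4 with at least 10 Ccl5 UMIs, and 10.9 as a share of all T cells in 10 libraries (exact permutation tests, p = 0.4, 0.3, 0.2 and 0.05). Its direction turned without D3 B, to -3.40 points, and it was 15.1 points without D5 B. With at least 10 Ccl5 UMIs, the shares of protocol B were 39.6%, 38.6%, 39.1% and 39.3% in D0 B, D3 B, D5 B and D9 B, then 58.5% and 59.0% in D19 B and D25 B. At that threshold the early libraries lay within 1 point of steady state and the late ones stood apart. In protocol B alone the difference between DDC and steady state was 19.1 points (exact permutation test, p = 0.167, the smallest that 6 arrangements allow). After every cell was thinned to 1500 UMIs, which left protocol B libraries only, it was 7.06 points (exact permutation test, p = 0.833), and with at least 3000 UMIs per cell 4.89 points (exact permutation test, p = 1). In thinned cells D3 B and D9 B lay below D0 B, with 34.0% and 38.5% against 43.2%. With at least 3000 UMIs they held 52.6% and 55.0% against 59.5%. D5 B, D19 B and D25 B stayed above D0 B in both. With at least 10 Ccl5 UMIs the difference between DDC and steady state was 19 points (exact permutation test, p = 0.222), and as a share of all T cells 12.0 points (exact permutation test, p = 0.167, where 0.0278 was possible). In STOP, members were 84.7% of CD8 T cells, and 79.6% at the stricter threshold, above every other protocol B library.

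Members were set against CD8 T cells that met the rule except for having no Ccl5 UMI, 89 to 238 in each of the 7 libraries. Since the rule separates them by a measured gene, the values are a description. Of 47 core genes of effector CD8 T cells, 20 were higher in members in all 7 libraries and 6 were lower in all 7, against 7.46% and 3.37% of the 12384 genes examined. The granule genes led the first group. Gzmb, the granzyme that triggers apoptosis in target cells, had a median level of 491 CPM in members and 15.3 CPM in the others. Gzma, a second granzyme, had 526 against 12.4 CPM, and Gzmk, a granzyme of effector memory cells, 46.9 against 0 CPM. Prf1 (perforin), Nkg7, Fasl, Ifng, Ccl3, Xcl1, Cxcr3, Itga1, Klrg1, Klrk1, Eomes, Tbx21 and Id2 were higher in every library as well. Among the lower genes were those of recirculating and naive or memory cells and 1 integrin. Median levels were 107 against 349 CPM for S1pr1 (exit from tissue), 629 against 1304 CPM for Klf2, which drives it, and 258 against 528 CPM for Tcf7, a factor of naive and memory cells. Il7r, the receptor for the survival cytokine IL-7, had 415 against 769 CPM, and Itgae, the integrin CD103 of epithelial retention, 18 against 41.3 CPM. Relative to CD8 T cells without Ccl5, the label of effector cells thus matches the markers that the rule did not use, for members as a set. The share of members with these markers differed between libraries. In thinned cells, Gzmb was detected least often in D5 B (13.7% of members) and most often in STOP (58.7%). Il7r and Tcf7 were most frequent in D5 B, at 55.7% and 45.5%, and least in STOP, at 19.6% and 14.3%. How many members of each library are effector rather than memory cells was not tested.

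Natural killer cells share the killing machinery and were examined in the 5 libraries with at least 20 of them. They were gated as cells with no Cd3 UMI, at least 2 UMIs of Ncr1 and Klrb1c together and none of Cd79a or Cd79b. The gate does not separate them from liver-resident innate lymphoid cells, so NK cells here may include these. Of the core genes, 9 were higher and 12 lower in members in all 5, against 8.58% and 13.5% of all genes. Gzmk, at a median of 55.4 CPM in members and 0.4 CPM in NK cells, was higher in members, along with Gzmm, Itgae, Cd69, S1pr1, Klf2, Tcf7, Pdcd1 and Havcr2. NK cells held more Gzmb (1420 against 506 CPM), Prf1 (228 against 65.9 CPM), Ccl4 (2495 against 493 CPM) and Xcl1 (507 against 54.3 CPM).

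The second set of comparisons follows members along the diet, in edgeR's quasi-likelihood test on 6 protocol B libraries with Benjamini-Hochberg adjustment over all genes tested. Steady state is 1 library there, whose spread is assumed to equal that of the others. The counts of called genes below moved widely with the library left out, as given under the dependence on processing. Of 12384 genes, 2 were called for onset against steady state (0.0161%), none for progression against onset (0%) and 57 for progression against steady state (0.46%), 14 higher (0.113%) and 43 lower (0.347%). At an unadjusted p under 0.05 there were 2187 (17.7%), 695 (5.61%) and 2880 genes (23.3%) in the same order, and DESeq2 called 265, 13 and 652 genes, the last 268 higher and 384 lower. A slope over log2 of day plus 1 was called for 151 of 11337 genes (1.33%), 20 higher (0.176%) and 131 lower (1.16%). Of the 46 core genes tested, none was called at onset, 2 were called lower in progression and 1 fell with time. Their median log2 fold change was -0.54 in progression against steady state, while that of all genes tested was 0.16.

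Neither perforin nor any granzyme gene was called in these comparisons. Gzmb was at 888 CPM in D0 B, 393 in D3 B, 175 in D5 B, 491 in D9 B, 506 in D19 B and 436 in D25 B. All 5 DDC libraries lay below D0 B, and D5 B was the lowest. The log2 change was -1.79 ± 0.39 (SE) at onset (edgeR, adjusted p = 0.151) and -1.11 ± 0.36 in progression (edgeR, adjusted p = 0.128). Gzmk was at 125 CPM in D0 B, 18.2 in D3 B, 11.2 in D5 B, 15.5 in D9 B, 55.4 in D19 B and 46.9 in D25 B. It was low from D3 B to D9 B, and neither its change at onset of -3.27 ± 0.66 (edgeR, adjusted p = 0.147) nor that in progression of -1.87 ± 0.57 (edgeR, adjusted p = 0.115) passed. With cells thinned to 1500 UMIs, 21.8% of members held a Gzmk UMI in D0 B, 0.885% in D3 B, 1.73% in D5 B, 2.56% in D9 B, 9.17% in D19 B and 7.14% in D25 B, and at most 0.55% of CD8 T cells without Ccl5 did. Both granzymes passed, in the same direction, with DESeq2, without a filter on low counts, in thinned cells and without members holding UMIs of other lineages. In cells of at least 3000 UMIs, the change in progression was only -0.05 for Gzmb (edgeR, adjusted p = 0.956) and -0.90 for Gzmk (edgeR, adjusted p = 0.417). At onset, thinned cells gave -2.64 for Gzmb (edgeR, adjusted p = 9.5e-05) and -3.55 for Gzmk (edgeR, adjusted p = 0.000245). Gzma ranged from 154 CPM in D5 B to 766 CPM in D0 B. Prf1, the pore-forming protein, was at 44.4 CPM in D0 B and 55.8 to 68.1 CPM under DDC (log2 change 0.30 ± 0.29 in progression, edgeR, adjusted p = 0.555). Gzmc, a granzyme named here after its values were seen, was at 6.66 CPM in D0 B and 30.7 to 135 CPM under DDC (3.22 ± 1.04, edgeR, adjusted p = 0.126). Of 16 genes for granules and killing, 5 had a positive change in progression, with a median of -0.47.

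Among cytokines and chemokines, Ccl4, a chemokine of activated T cells and NK cells, fell in progression. Its level was 2000.4 CPM in D0 B, 539.7 in D3 B, 332 in D5 B, 346 in D9 B, 435 in D19 B and 493 in D25 B, so that steady state stood far above every DDC library. The log2 change was -2.45 ± 0.31 (edgeR, adjusted p = 0.0385), and without D19 B the call was lost (edgeR, adjusted p = 0.084). Xcl1, the chemokine that draws XCR1-positive cDC1, was at 219 CPM in D0 B, 57.6 in D3 B, 35.0 in D5 B, 61.8 in D9 B, 17.1 in D19 B and 18.2 in D25 B. Its slope of -0.79 ± 0.09 per log2 unit of day plus 1 passed (edgeR, adjusted p = 0.00573). The lowest 2 libraries were the late ones, and steady state was apart from all others. Ifng was at 231 CPM in D0 B and between 27.6 CPM in D9 B and 139 CPM in D25 B under DDC, without a call. Ccl4 was the only one of 16 cytokine and chemokine genes called in progression, and Xcl1 the only one of 14 called for the trend.

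Il7r and Tcf7, genes of naive and memory cells, had higher levels under DDC than in D0 B, but none of 16 genes of circulation and memory was called. Il7r was at 242 CPM in D0 B and between 379.6 CPM (D3 B) and 669 CPM (D5 B). Tcf7 was at 186 CPM in D0 B and between 211 CPM (D25 B) and 419 CPM (D5 B). In both genes the 5 DDC libraries lay above the single steady-state library. Klf2 went the other way, with 1928 CPM in D0 B and 525 to 964 CPM under DDC (log2 change -1.88 ± 0.33 in progression, edgeR, adjusted p = 0.0524). Of the 16 genes, 12 had a positive change in progression, with a median of 0.44. CD8 T cells without Ccl5 held more Il7r and Tcf7 than members in all 7 libraries, with medians of 769 and 528 CPM. The share of members under 10 Ccl5 UMIs was 11.9% in D0 B and 16.9% (D25 B) to 44.1% (D5 B) under DDC. The part of members with low Ccl5 in the levels of both genes was not tested directly.

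No inhibitory receptor was called along the diet. Pdcd1, which encodes PD-1, was at 9.99 CPM in D0 B, 1.71 in D3 B, 8.43 in D5 B, 19.5 in D9 B, 27.4 in D19 B and 23.2 in D25 B. The 3 progression libraries lay above the 3 others, with a log2 change of 1.91 ± 0.49 against onset that did not pass (edgeR, adjusted p = 0.714). Tox, a factor of chronic antigen exposure, was at 25.5 CPM in D0 B and 31.9, 34.2, 59.2, 73.8 and 45.1 CPM in D3 B, D5 B, D9 B, D19 B and D25 B. Lag3 and Havcr2, which encodes TIM-3, had their highest level of the 6 libraries in D0 B, at 20 and 31.1 CPM. None of 14 checkpoint genes was called, and 8 had a positive change in progression.

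**Figure D2:**
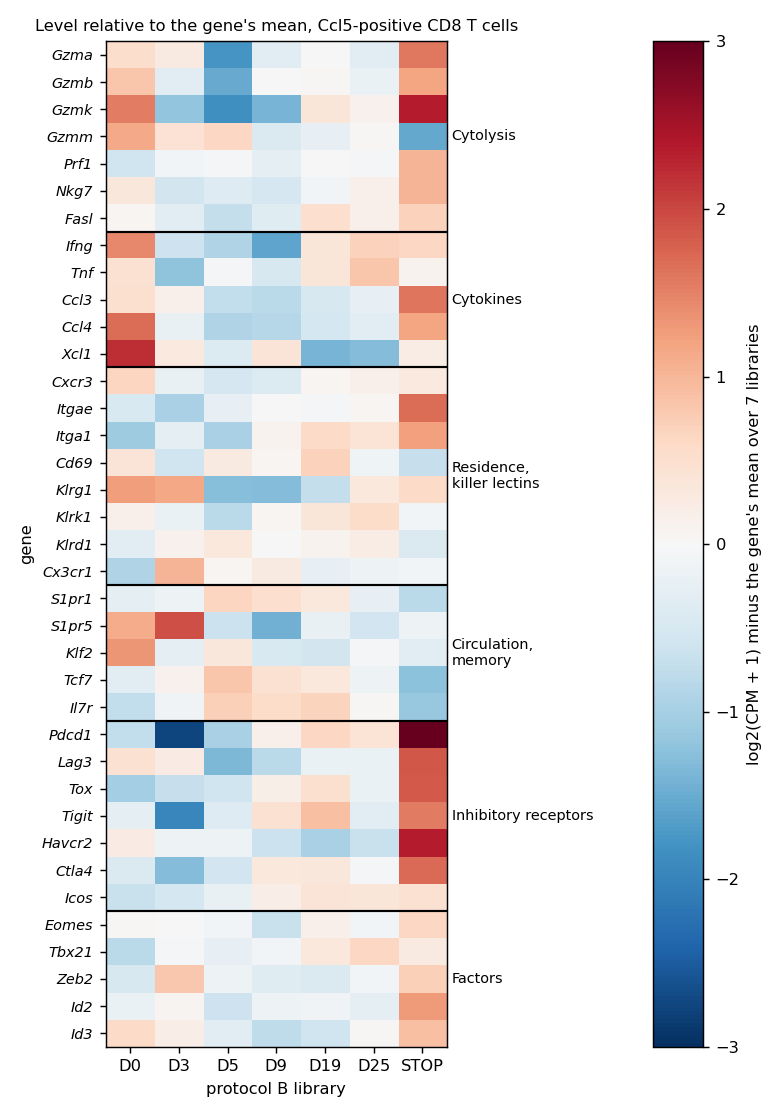
Heat map of the levels of core genes in members, by group of function and library, as log2(CPM + 1) minus the gene's mean over the 7 protocol B libraries, on a colour scale from -3 to 3. Granule genes such as Gzmk (11.2 CPM in D5 B, 224 CPM in STOP) and checkpoint genes such as Pdcd1 (1.71 CPM in D3 B, 177 CPM in STOP) stand out in STOP, and Tcf7 and Il7r are lowest there.

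Of the genes called outside the core list, those with the largest changes formed groups. Lower in progression were genes of the cell cycle, led by Ube2c, an enzyme that helps mark proteins for breakdown in mitosis. Ube2c was at 175 CPM in D0 B, 23.9 in D3 B, 15.9 in D5 B, 8.91 in D9 B, 12.9 in D19 B and 18.6 in D25 B. Steady state stood apart from all DDC libraries, with a log2 change of -3.89 ± 0.37 (edgeR, adjusted p = 0.0146). Nusap1 and Ccnb2, named here after their values were seen, made it 3 of 20 cell cycle genes called lower, and the median over the 20 was -1.66. The call for Ube2c was lost when cells were thinned to 1500 UMIs (edgeR, adjusted p = 0.432), as was that for H2ax below (edgeR, adjusted p = 0.0822). H2ax, a histone of DNA repair, was at 263 CPM in D0 B and 32.2 to 51.3 CPM under DDC (log2 change -2.86 ± 0.28, edgeR, adjusted p = 0.0146), and H1f5, a linker histone, at 378 CPM and 49.8 to 94.1 CPM (-2.65 ± 0.33, edgeR, adjusted p = 0.0385). Hsp90b1, a chaperone of the endoplasmic reticulum, was at 1044 CPM in D0 B and 197 to 338 CPM under DDC (-2.50 ± 0.25, edgeR, adjusted p = 0.0146). Of 22 immediate early and heat shock genes, Dnajb1 and Fos were called. Dnajb1, a heat shock co-chaperone, was at 521 CPM in D0 B and 59.8 to 156 CPM under DDC (-2.84 ± 0.35, edgeR, adjusted p = 0.0385). Creld2, induced by stress of the endoplasmic reticulum, was at 109 CPM and 15.5 to 30.2 CPM (-2.68 ± 0.38, edgeR, adjusted p = 0.045), a call lost after thinning and without members with UMIs of other lineages. Fos, an immediate early factor, was at 1551 CPM in D0 B and 580 to 712 CPM under DDC (-1.53 ± 0.23, edgeR, adjusted p = 0.0454), and lost its call in 6 of 13 alternatives. Without D19 B, the calls for Hsp90b1, Dnajb1, Creld2 and Fos were all lost (edgeR, adjusted p = 0.0557 for Hsp90b1 and 0.127 for Fos).

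Of the genes called higher, Ikzf2 and Cxcr4, named here after their values were seen, are expressed by T cells. Cxcr4 is expressed by other leukocytes too, and their part in its level was not tested. Ikzf2, which encodes the transcription factor Helios, was at 9.99 CPM in D0 B, 73.0 in D3 B, 43.9 in D5 B, 84.5 in D9 B, 86.3 in D19 B and 96.9 in D25 B. No DDC library came near the steady-state level, and the log2 change in progression was 2.94 ± 0.44 (edgeR, adjusted p = 0.0454). Without D19 B the adjusted p was 0.101. Cxcr4, the receptor for CXCL12, was at 31.1 CPM in D0 B, 159 in D3 B, 122 in D5 B, 173 in D9 B, 196 in D19 B and 158 in D25 B, with a log2 change of 2.28 ± 0.32 (edgeR, adjusted p = 0.0448). It was past the threshold in 10 of 13 alternatives.

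The remaining genes with the largest increases are products of bile duct cells. Spp1 (osteopontin) was at 18.9 CPM in D0 B, 1109 in D3 B, 885 in D5 B, 945 in D9 B, 802 in D19 B and 953 in D25 B, and its log2 change was 5.59 ± 0.40 at onset (edgeR, adjusted p = 0.0067) and 5.36 ± 0.39 in progression (edgeR, adjusted p = 0.00735). Clu (clusterin) had 1 UMI in D0 B and 491 to 856 CPM under DDC, and was the other gene called at onset (edgeR, adjusted p = 0.00943). Without members holding UMIs of other lineages, both calls at onset were lost (edgeR, adjusted p = 0.0739 for Spp1 and 0.0774 for Clu), and with at least 10 Ccl5 UMIs as well (edgeR, adjusted p = 0.126 for both). The log2 change of Spp1 at onset was 5.07 or more in every alternative. In progression Spp1 kept its call in 13 of 13 alternatives and Clu in 12 of 13. Of 10 cholangiocyte markers, 5 were called higher in progression and all 10 had a positive change. Summed over the 10, their level was 34.4 CPM in D0 B, 1429 to 1582 CPM at onset and 1257 to 1752 CPM in progression. Of 6 B cell markers tested, 4 were called lower, and the summed level was 923 CPM in D0 B and 88.9 to 190 CPM under DDC. Dendritic cell markers summed to 15448 CPM in D0 B, 7007 to 10662 CPM at onset and 2468 to 5784 CPM in progression. The part of RNA from other cells in the called genes was not tested beyond the alternatives given here.

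The same genes were read in other cells of the same libraries. Spp1 was at 5.54 CPM in B cells of D0 B and 1453 to 4505 CPM in those of DDC libraries, and at 75.5 and 588 to 3464 CPM in CD4 T cells. Ube2c was highest in D0 B also in CD8 T cells without Ccl5 (109 CPM against 1.11 to 34.7 CPM under DDC) and in CD4 T cells (189.9 against 16.2 to 78.3 CPM). In B cells Ube2c was at 33.6 CPM in D0 B and 0 to 90.6 CPM under DDC. The low Spp1 and high Ube2c of D0 B were thus seen in other T cells too. Ikzf2 was at 5.01 CPM in CD8 T cells without Ccl5 of D0 B and 4.49 to 24.5 CPM under DDC, at 38.8 and 136 to 342 CPM in NK cells, and at 2.16 and 3.25 to 6.56 CPM in B cells. Members and NK cells carried it at higher levels than B cells in every library in which both were measured. Ccl4 was at 6711 CPM in NK cells of D0 B and 1579 to 2861 CPM in those of DDC libraries. Xcl1 in NK cells was at 1342 CPM in D0 B and 108 to 507 CPM under DDC. The lower levels of both chemokines were thus seen in members and NK cells. Cells of the B cell gate, which did not exclude other lineages, held more Ccl4 than members in 5 of 7 libraries, with medians of 1181 and 493 CPM. The part of other cells in the level of Ccl4 in members was not tested. No test of a difference between cell types was made.

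**Figure D3:**
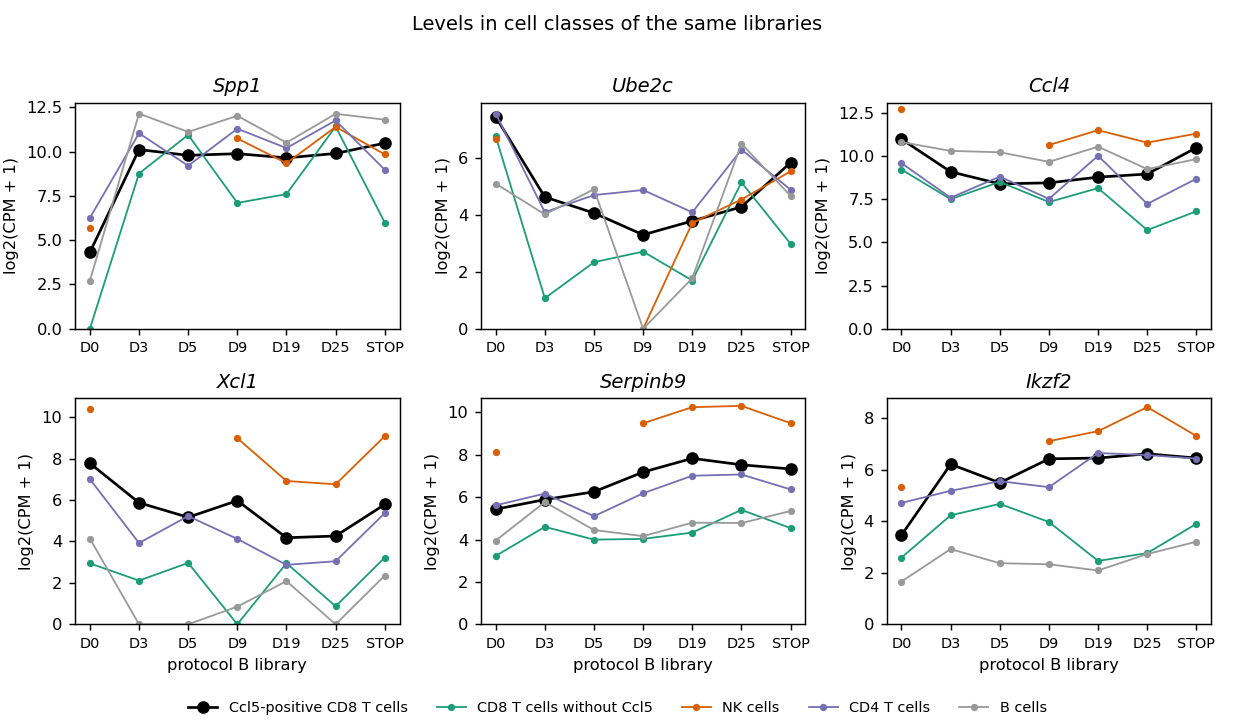
Levels as log2(CPM + 1) of Spp1, Ube2c, Ccl4, Xcl1, Serpinb9 and Ikzf2 by protocol B library in members, CD8 T cells without Ccl5, NK cells, CD4 T cells and B cells. NK cells have no point at D3 B and D5 B, where fewer than 20 were found. Spp1 is low at D0 B in all classes (18.9 CPM in members), and Ccl4 is highest at D0 B in members and NK cells.

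Over the days of the diet, Serpinb9 rose. It encodes the serpin that inhibits granzyme B and shields killer cells from their own granules. Its level was 42.2 CPM in D0 B, 58.1 in D3 B, 75.4 in D5 B, 145 in D9 B, 227 in D19 B and 184 in D25 B. The 3 progression libraries lay above the 3 earlier ones, and the slope was 0.51 ± 0.08 on the log2 scale per log2 unit of day plus 1 (edgeR, adjusted p = 0.0238). The slope did not pass in thinned cells (0.32, edgeR, adjusted p = 0.173) or without D19 B (0.45, edgeR, adjusted p = 0.0548). NK cells held 278 CPM in D0 B and 718 to 1268 CPM in D9 B, D19 B and D25 B, and CD8 T cells without Ccl5 8.36 CPM and 15.0 to 41.3 CPM. Cdk6, a kinase of cell cycle entry, was at 24.4, 56.4, 88.0, 116, 138 and 143 CPM in D0 B, D3 B, D5 B, D9 B, D19 B and D25 B, the order of the days, with a slope of 0.49 ± 0.08 (edgeR, adjusted p = 0.0204). Mgst1, a glutathione transferase of many liver cells, was at 5.55 CPM in D0 B and 73.0 CPM in D25 B (0.56 ± 0.10, edgeR, adjusted p = 0.0284), and Dcn, Ccdc80 and Apoc1, products of stellate cells, fibroblasts and hepatocytes or macrophages, were called with it. Markers of stellate cells and fibroblasts summed to 11.1 CPM in D0 B, 32.5 to 86.0 CPM at onset and 67.6, 87.6 and 1413 CPM in D9 B, D19 B and D25 B. Only D25 B thus stood above onset by a wide margin. Lower with time were the histones Hist1h2ap (311 CPM in D0 B, 5.42 CPM in D25 B, slope -1.27 ± 0.18, edgeR, adjusted p = 0.0125) and H2ac8 (194 and 7.17 CPM, -1.00 ± 0.11, edgeR, adjusted p = 0.00402). Cyba, a subunit of the NADPH oxidase, and Ost4, of the oligosaccharyltransferase, fell as well, with slopes of -0.77 ± 0.13 and -0.76 ± 0.07 (edgeR, adjusted p = 0.0238 and 0.00289). Steady state decides the count of the trend, as no gene was called without D0 B, with 890 at an unadjusted p under 0.05.

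No gene was called between progression and onset. The smallest p values among higher genes belonged to Serpina3g, a serpin of activated CD8 T cells, Ide and Serpinb9, and among lower genes to Pmaip1 (the apoptosis gene Noxa), Tbc1d4 and Spi1. Serpina3g was at 34.8 and 22.8 CPM in D3 B and D5 B and at 102, 113 and 99.8 CPM in D9 B, D19 B and D25 B, without overlap (log2 change 1.81 ± 0.23, edgeR, adjusted p = 0.543). Its level in D0 B was 86.5 CPM, near that of progression. Tbc1d4 was at 139 and 96.5 CPM at onset and at 52.9, 36.9 and 28.1 CPM in progression (-1.67 ± 0.27, edgeR, adjusted p = 0.565).

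Effector genes were found together in the same cells. Among members with at least 10 Ccl5 UMIs thinned to 1500 UMIs, Gzma was detected in 45.3% of Gzmb-positive and 9.47% of Gzmb-negative cells in D0 B, in 36.0% and 2.78% in D25 B and in 49.6% and 16.1% in STOP. The share was higher in Gzmb-positive cells in 7 of 7 libraries. For Gzmk it was 37.3% and 14.7% in D0 B, 17.7% and 7.97% in D19 B and 49.4% and 20% in STOP, and the order was the reverse in D3 B, with 0% and 1.52%.

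The last comparison asks what members look like after the diet ends. STOP and D19 B are 1 library each, so the difference between them has no replicate check, and exact Poisson intervals cover counting error only. Of 813 genes at 200 CPM or more in either library, 674 had separate intervals, 412 higher and 262 lower in STOP, and with at least a 2-fold difference 94 (11.6%) and 57 (7.01%). Against all 6 other protocol B libraries, 21 of the 47 core genes lay above the range in STOP, 7 below it and 19 within. Of the 12384 genes, 29.6% lay above that range and 5.3% below it.

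Of 16 genes for granules and killing, 9 lay above the range in STOP, 1 below and 6 within. Gzmk was at 224 CPM in STOP, Gzma at 1586, Gzmb at 1130.1, Prf1 at 139, Nkg7 at 2056 and Fasl at 109.9 CPM. Relative to D19 B, these were 4.04-fold for Gzmk, 3.01-fold for Gzma and 2.24-fold for Gzmb. Steady state came closest to STOP for the granzymes, with 125, 766 and 888 CPM. Gzmm, another granzyme, was below the range, at 13.1 CPM in STOP and 29.6 to 89.9 CPM elsewhere. Of 18 cytokine and chemokine genes, 4 lay above the range, 1 below and 13 within, while 29.6% of all genes lay above. Ccl3, 1 of the 4, was at 314 CPM in STOP and 58.1 to 143 CPM elsewhere, a 4.33-fold ratio to D19 B. Ccl4, at 1421 CPM, lay within the range because of D0 B.

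Of 15 checkpoint genes, 13 lay above the range of the 6 other libraries. The exceptions, named here after their values were seen, were Cd160, at 154 CPM in STOP and 217 CPM in D0 B, and Cd101, at 10.6 CPM and below the range. Pdcd1 was at 177 CPM in STOP against 1.71 to 27.4 CPM elsewhere, 6.49-fold its level in D19 B. Havcr2 was at 136 CPM against 12.7 to 31.1 CPM (10.7-fold D19 B), Lag3 at 54.5 against 4.96 to 20 CPM (4.45-fold), Ctla4 at 141 against 16.5 to 54.3 CPM (2.59-fold) and Tox at 191 against 25.5 to 73.8 CPM (2.59-fold). In thinned cells, Pdcd1 was detected in 26.8% of STOP members and in at most 5.73% of members of the 6 other libraries. Id2, a factor of effector fate, was at 1066 CPM against 287 to 466 CPM. Of 16 genes of circulation and memory, 9 lay below the range and 1 above. Il7r was at 183 CPM against 242 to 669 CPM (0.285-fold D19 B), Tcf7 at 100.5 against 186 to 419 CPM (0.344-fold), and S1pr1, Klrd1 and Cd69, a marker of recent activation and retention, were below it too, with Gzmm. Cd69 was the only one of 16 tissue residency genes below the range, and 10 lay above it, such as Itga1, at 156 CPM against 31.1 to 99.6 CPM, and Itgae, at 61.9 against 9.12 to 19.8 CPM. Markers of other cells moved with them, since dendritic cell markers summed to 13766 CPM in STOP and 2468 CPM in D19 B, and endothelial markers to 3079 CPM in STOP and 259 to 804 CPM elsewhere. Itgae is also a gene of cDC1, whose receptor Xcr1 was at 143 CPM in STOP and 8.01 to 74.3 CPM elsewhere. In thinned members with other V segments, described below, Itgae was detected in 3.33% in STOP and 3.95% in D19 B. Havcr2 was higher in cells of the B cell gate than in members in 6 of 7 libraries, with medians of 52.9 and 23.1 CPM. The part of other cells in the residency genes and in Havcr2 was not tested. By level in CPM, the counts of core genes were 18 above and 7 below in thinned cells, 20 and 7 with members of at least 10 Ccl5 UMIs, and 21 and 6 without members holding UMIs of other lineages.

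Among genes at 200 CPM or more in either library, the largest increases over D19 B were not those of T cell genes. Chil4, a chitinase-like protein of macrophages, was at 314 CPM in STOP and 1 UMI in D19 B, Dnase1l3, a nuclease of endothelium and macrophages, at 1245 against 125 CPM, Sparc at 528 against 52.7 CPM, Fabp4 at 463 against 50.5 CPM and Dcn at 280.1 against 28.2 CPM. Without members holding UMIs of other lineages, levels were lower in both libraries, with 9.61 against 0 CPM for Chil4, 13.9 against 2.95 CPM for Sparc and 54.3 against 2.11 CPM for Dnase1l3. In thinned cells Dcn was at 42.9 CPM in STOP and 44.9 CPM in D19 B, so its order turned there. Fabp1, a fatty acid carrier of hepatocytes, kept 217 CPM without members holding UMIs of other lineages, and CD8 T cells without Ccl5, CD4 T cells, B cells and NK cells of STOP held 245 to 901 CPM of it. In the other direction, Igha and Jchain, genes of plasma cells, were at 0 UMIs in STOP and at 589 and 217 CPM in D19 B, and Igha was at 0.843 CPM in D19 B without members holding UMIs of other lineages. Satb1, a chromatin organiser of naive T cells, was at 158 CPM in STOP and 592 CPM in D19 B, and stayed lower there without these members (276 against 693 CPM). Lars2 was at 62.1 against 597 CPM, and CT010467.1, a locus of ribosomal RNA, at 4598 against 23189.9 CPM.

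T cell receptors were read from the V segments in the members' RNA. Each T cell assembles 1 beta chain and usually 1 alpha chain from many V segments, so that cells descended from 1 T cell share them. Of 1220 STOP members, 538 held a UMI of any Trav or Trbv gene. Among those with exactly 1 Trbv gene, Trbv31 was the one in 106 of 248 (42.7%, exact 95% interval 36.5% to 49.2%). Trbv31 was found in 0 to 2 such cells in each of the 6 other protocol B libraries, 0% to 6.06%. Among members with exactly 1 Trav gene, Trav7-4, named here after its values were seen, was the one in 151 of 333 (45.3%, interval 39.9% to 50.9%), against 0% to 1.67% elsewhere. The next segments in STOP were Trbv2 with 8.47% and Trav6n-6 with 8.11%. In the atlas libraries Trbv12-2 led or tied for the lead in each, with 12.4% in D19 B to 33.3% in D0 B.

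Other cells of the STOP library rarely held these segments. In CD8 T cells without Ccl5, Trbv31 was the segment in 0 of 29 cells with exactly 1 Trbv gene, which allows a share of up to 10.3% by 3 counts and 11.9% by the exact interval, and Trav7-4 in 1 of 29 with exactly 1 Trav gene. Each was seen in 1 of 451 CD4 T cells, and neither in 422 NK cells. Trbv31 lies at chr6:41557691-41558452 on the minus strand and Trav7-4 at chr14:53461099-53461738 on the plus strand (GRCm38, GENCODE M21). The first 300 coding bases of both segments are shown because the result turns on them, and Trav7d-4 because it is a near-identical copy of Trav7-4. Capitals mark the 2 bases, of 341 in the whole segment, at which Trav7-4 and Trav7d-4 differ (99.4% identity).
Trbv31: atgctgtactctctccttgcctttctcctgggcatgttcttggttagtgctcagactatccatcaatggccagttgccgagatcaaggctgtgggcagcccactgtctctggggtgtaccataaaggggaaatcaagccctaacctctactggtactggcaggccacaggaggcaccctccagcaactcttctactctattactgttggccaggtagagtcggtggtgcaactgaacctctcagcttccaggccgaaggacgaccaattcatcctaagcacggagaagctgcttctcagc
Trav7-4: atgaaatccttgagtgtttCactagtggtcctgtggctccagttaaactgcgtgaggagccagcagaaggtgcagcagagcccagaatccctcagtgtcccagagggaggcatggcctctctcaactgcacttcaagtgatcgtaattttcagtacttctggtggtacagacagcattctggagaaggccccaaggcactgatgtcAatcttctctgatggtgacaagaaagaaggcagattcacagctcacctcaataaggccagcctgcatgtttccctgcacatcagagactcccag
Trav7d-4: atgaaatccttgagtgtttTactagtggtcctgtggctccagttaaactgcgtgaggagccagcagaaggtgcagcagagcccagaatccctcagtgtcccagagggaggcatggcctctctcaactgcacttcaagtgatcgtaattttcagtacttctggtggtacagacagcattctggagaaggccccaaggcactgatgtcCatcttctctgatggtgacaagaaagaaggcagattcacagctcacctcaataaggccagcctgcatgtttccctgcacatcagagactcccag

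STOP members held 198 UMIs of Trav7-4 and none of Trav7d-4 or of Trav7n-4, another copy, with 97.9% identity. Counting could have split reads between such copies, so the share belongs to the group of the 3. Both segments were found in the same cells. Of 37 Trav7-4-positive members that had any Trbv gene, 33 had Trbv31 (89.2%), and of 44 Trbv31-positive members with any Trav gene, 33 had Trav7-4 (75%). In all, 107 members held Trbv31, 164 held Trav7-4 and 238 held either. Trbc1, a constant region of the beta chain, was detected in 238 of these 238 (100%, interval 98.5% to 100%) and in 192 of 300 other STOP members with a V segment (64.0%, interval 58.3% to 69.4%). In the other 6 libraries 43.7% to 65.8% of members with a V segment held it. Trbc1 and Trbc2 are near-identical copies, so that their counts are uncertain, and Trbc1 was examined after the segments had been seen. Only the names of the V segments are known here, not the junctions, so that 1 clone cannot be told apart from several that share segments, nor 1 mouse from several.

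**Figure D4:**
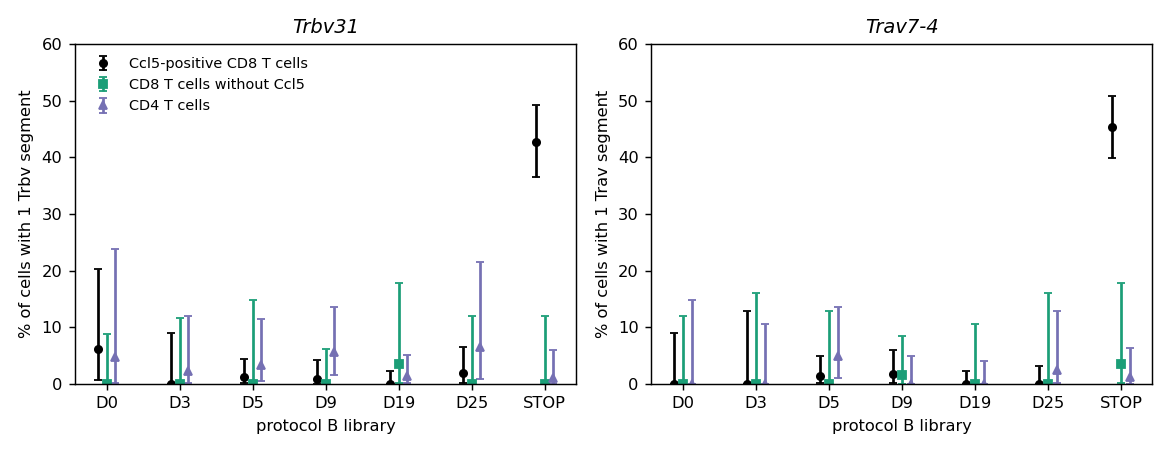
Percent of cells with exactly 1 Trbv (left) or 1 Trav gene (right) in which it is Trbv31 or Trav7-4, by protocol B library, in members, CD8 T cells without Ccl5 and CD4 T cells, with exact 95% binomial intervals. Members of STOP reach 42.7% and 45.3%, and members of every other library stay at or under 6.06%.

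Members with Trbv31 or Trav7-4 differed from the 300 other typed STOP members in what they expressed. The comparison is within 1 library and over cells, so it is a description, with exact binomial intervals for counting error and cells thinned to 1500 UMIs. Of the 47 core genes, 14 were detected more often and 11 less often with separate intervals, against 0.969% and 0.816% of 12384 genes, or 2.55% and 1.8% of the 4233 genes in at least 5% of the cells. Higher were the killing genes Gzmb (77.3% against 42.3%), Gzma (53.8% against 25%), Gzmk (52.5% against 21.7%) and Prf1 (29.4% against 15.7%), and the chemokines Ccl4 (67.2% against 42.3%) and Ccl3 (34.9% against 16.3%). The inhibitory receptors Pdcd1 (49.6% against 11.7%), Havcr2 (28.2% against 8.33%), Lag3 (17.6% against 4%) and Ctla4 (27.7% against 14.3%) were higher as well, with Tox (45.0% against 20.3%), Eomes (12.6% against 4.33%) and Id2 (79.8% against 53.7%). Lower were Tcf7 (2.52% against 25%), Il7r (5.46% against 26.7%), Klf2 (26.1% against 46.7%), Cd69 (18.1% against 36.3%), Itga1 (8.82% against 20%) and Klrd1 (16.0% against 35.3%). These cells held a median of 200 Ccl5 UMIs against 67, although their median depth was 3907.5 against 5165.5 UMIs. Other genes, chosen after their values were seen, were Maf, a factor of IL-10 production and exhaustion (67.2% against 28.7%), Entpd1, the ectonucleotidase CD39 (29.0% against 8.67%), and in the other direction Ly6c2 (4.62% against 38.3%) and Lef1, a partner of Tcf7 (1.26% against 19%).

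**Figure D5:**
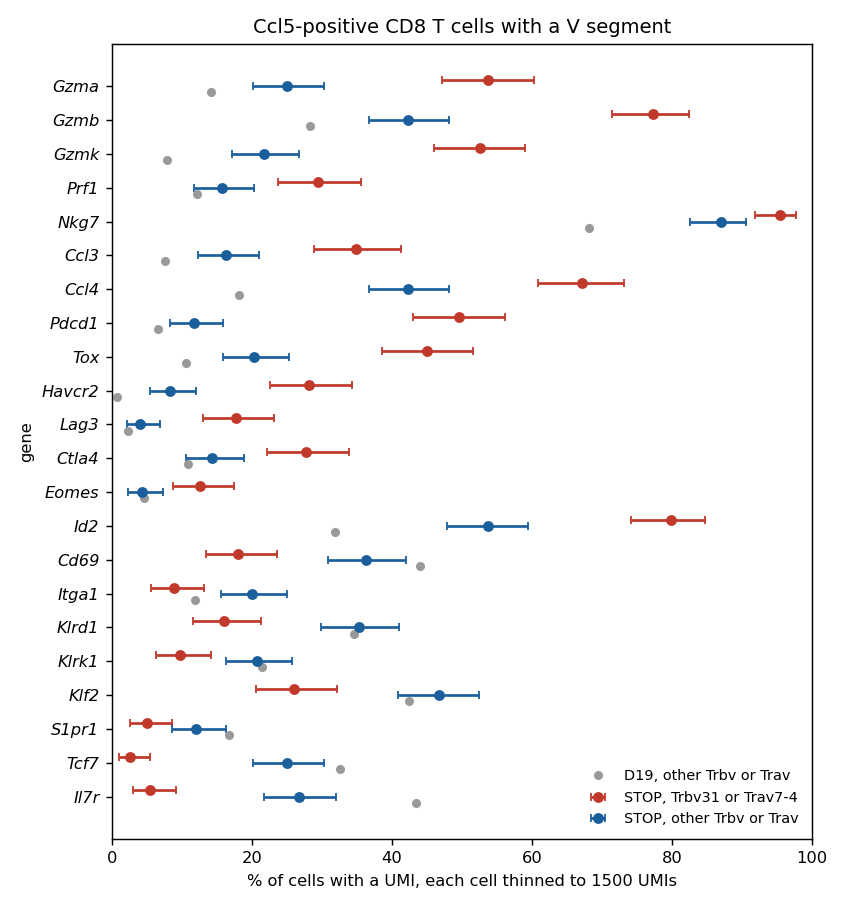
Percent of cells with a UMI of each of 22 genes after thinning to 1500 UMIs, in STOP members with Trbv31 or Trav7-4 (238), STOP members with other V segments (300) and D19 B members with other V segments (304). Bars are exact 95% binomial intervals for the STOP groups, and the D19 B points have none drawn. Pdcd1 reaches 49.6% in the first group and 11.7% in the second, and Tcf7 2.52% and 25%.

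Members of STOP were also set against the other libraries without these cells. By the share of thinned cells with a UMI, and over all members, STOP lay above the range of the 6 other libraries for 22 of 47 core genes, below it for 9 and within it for 16, against 23.6% and 3.97% of the 12384 genes above and below. Among typed members without either segment, it lay above for 16, below for 3 and within for 28, against 21.7% and 3.33% of all genes. Pdcd1 was detected in 11.7% of these STOP members, in 6.58% in D19 B and in 0% to 3.07% in D0 B, D3 B, D5 B, D9 B and D25 B. Gzmb was detected in 42.3% in STOP and 13.2% to 38.0% elsewhere, and Gzmk in 21.7%, under the 22.5% of D0 B. Havcr2, at 8.33% against 0% to 4.69%, and Id2, at 53.7% against 23.2% to 40.6%, stayed above every other library. The 682 STOP members with no V segment UMI cannot be assigned to either group.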

How the data were processed

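Droplet-based scRNA-seq of mouse liver was analysed from 13 libraries. The deposited values are whole UMI counts for 55353 genes in each barcode, obtained by the authors with kallisto on GRCm38 per the submitters' processing notes. Its version and the annotation release are not given in the sources used here, and no filter on barcodes or normalization was applied. The members and gene lists were chosen with earlier results of these data known. Members were found on raw counts, as described above, and counts were summed per library. Libraries with fewer than 20 members were left out, which removed every protocol A library and with it the planned protocol term from the fits across genes. edgeR 4.0.16 in R 4.3.3 (TMM, filterByExpr, quasi-likelihood test, Benjamini-Hochberg at 0.05) fitted steady state, onset and progression together and, separately, a slope over log2(day + 1). A standard error is |log2 change| over the root of edgeR's F. The fits were tested on simulated data. Shares of cells were compared by exact permutation within protocol, with every arrangement listed in Python 3.11.15. Exact intervals came from scipy 1.17.1. Thinning drew 1500 UMIs per cell without replacement. Other-lineage UMIs were those of 20 genes, at least 2 per cell. Named genes were the core genes, the 6 largest log2 changes in each direction among called genes whose mean log2 CPM reached 5 (with no call, the 3 smallest p), the 6 largest ratios in each direction for recovery among genes of at least 200 CPM, and the 5 Trbv genes with most UMIs. Predicted, mitochondrial, ribosomal protein and rule genes were not named. Alternatives were DESeq2 1.42.0, an unfiltered gene table, cells with 3000 or more UMIs, thinning, at least 4 Ccl5 UMIs, no other-lineage UMIs, at least 50 members, protocol B alone, each library left out and, chosen after seeing the data, at least 10 Ccl5 UMIs. The group label of the D19 B library names day 18 where its title has D19, and it was used as D19. Some genes that the rules name are not reported here.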

Additional observations from a re-analysis of the deposited data

Results flagged for a closer look

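Among the levels of 49 genes in the 5 DDC libraries of protocol B, 3 had 1 library far from the others by Dixon's criterion (0.71 for 5 samples), which chance meets in about 1 of 20 groups. All 3 were high in D3 B, the library with the fewest members. Zeb2, a transcription factor of effector T cells and of myeloid and B cells, was at 131 CPM there and at 54.9 to 69.7 CPM in the other 4. Csf1r and Itgax, genes of myeloid and dendritic cells chosen after their values were seen, were also highest there, at 101 and 114 CPM against 33.1 to 52.5 and 31.4 to 60.4 CPM. Cells of the B cell gate, which did not exclude other lineages, held a median of 344 CPM of Zeb2 over the 7 libraries. The part of other cells in the level of Zeb2 was not tested. S1pr5, a receptor for exit from tissue, was at 12.5 CPM there and 0.287 to 2.00 CPM in the others. Cxcr6 was at 1.14 CPM there and 0 to 0.222 CPM in the others, and had 5 UMIs in all members, so nothing is drawn from it.

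Signal outside the comparisons across genes lay in the V segments, where Trbv31 made up 42.7% of STOP members with exactly 1 Trbv gene, against 0% to 6.06% in the other libraries, and Trav7-4 made up 45.3% of those with exactly 1 Trav gene, against 0% to 1.67%. No second recovery library was analysed here.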

How the results depend on the processing

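The 37 calls of named genes that appeared and the 42 that were lost under an alternative kept their direction, and 373 further values of named genes stayed on their side of the threshold. Counts of called genes depended on the method. For onset against steady state (2 genes), DESeq2 called 265, the fit without a filter on low counts 680, cells of at least 3000 UMIs 4, thinned cells 134, members without other-lineage UMIs 31 and members of at least 10 Ccl5 UMIs 0 (edgeR, 1972 at an unadjusted p under 0.05), and leaving out a library gave 1 to 20. For progression against onset (0 genes), these were 13 with DESeq2, 347 without the filter, 4 thinned and 16 without other-lineage UMIs, and 0 to 1 with a library left out. For progression against steady state (57 genes), they were 652, 1490, 170 at 3000 UMIs, 284 thinned and 367 without other-lineage UMIs. DESeq2 shared 50 of the 57 genes, thinned cells 22 and members without other-lineage UMIs 26. Leaving out a library gave 14 (without D19 B) to 558 (without D25 B), with 132 without D9 B. For the trend (151 genes), they were 400 with DESeq2, 434 without the filter, 72 thinned and 86 without other-lineage UMIs, and 0 (without D0 B) to 324 (without D25 B) with a library left out, with 72 without D5 B and 87 without D19 B. The cause was not tested. At least 50 members and protocol B alone gave the fit itself. Without D0 B the comparisons with steady state have no value.

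The share of members in progression against onset was -3.40 points without D3 B, and -3.40 to 15.1 points over the libraries left out. Against steady state it was 19.1 to 47.9 points over the libraries left out. For recovery against D19 B, separate intervals fell from 674 to 430 genes in thinned cells, which hold fewer UMIs, and the Trav7-4 share was 38.0% with at least 3000 UMIs per cell. No paired analysis was possible because every protocol A library had fewer than 20 members, so that the fits hold 1 replicate number, and the shares were permuted within protocol instead.

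The single steady-state library limits every comparison with it, and 113 members in D3 B limit onset. At these depths a UMI count of 0 in a cell does not show that a gene was silent.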

Other observations

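Cxcr6, a chemokine receptor of CD8 T cells resident in liver, had 23 UMIs in all cells and 5 in members, while Fyco1, whose gene at chr9:123789500-123851899 encloses Cxcr6 at chr9:123806475-123811760 on the opposite strand, had 14826 and 652 UMIs (GRCm38, GENCODE M21). The level of Cxcr6 in these cells is therefore uncertain.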
